A study of Mus musculus with 11 samples.

Results

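Fcγ receptors bind the constant part of immunoglobulin G and let a macrophage respond to antibody-coated particles. In the mouse, Fcgr1, Fcgr3 and Fcgr4 encode the activating receptors FcγRI, FcγRIII and FcγRIV, which pair with the common γ chain encoded by Fcer1g. Crosslinking leads Src family kinases to phosphorylate the ITAM of that chain, and the tyrosine kinase Syk then docks there and carries the signal to phagocytosis and the oxidative burst. Fcgr2b encodes FcγRIIB, the inhibitory receptor, whose ITIM recruits the phosphatase SHIP-1 and raises the threshold for activation. The balance between activating receptors and Fcgr2b is therefore often given as a ratio within one cell population. The members were fixed by name as the mouse Fcγ receptors, their shared signalling chain and Syk, not by any measured value. Of the 6 named genes, 5 had a row among the 754 genes of the deposited table, and the sixth, Fcer1g, was not analysed here. All 5 passed the filter on low values, as did 445 of the 754 genes.

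Transcripts were counted with the Nanostring Myeloid Innate Immunity panel, which reads a barcoded probe pair per gene without amplification, in CD11b+F4/80+ macrophages sorted from the peritoneal cavity. The series compares mice with and without RELMα, at rest and after IL-4 complex (IL-4c, IL-4 bound to an anti-IL-4 antibody). RELMα is a secreted protein encoded by Retnla that alternatively activated macrophages make in large amounts. The controls received PBS, which held no antibody. Effects of IL-4 and of the antibody on the Fcγ receptor genes therefore cannot be told apart. Female C57BL/6 mice (spelled C57BI/6 in the labels) aged 6 to 8 weeks were injected intraperitoneally on days 0 and 2, and macrophages were sorted on day 4. There were 4 groups. PBS was given to 2 wild-type (Rα+/+) animals, numbered 1 and 2, and to 2 homozygous RαTd/Td animals, numbered 3 and 4. IL-4c was given to 3 Rα+/+ animals, numbered 5, 6 and 7, and to 4 RαTd/Td animals, numbered 9, 10, 11 and 12. The paper injected 4 Rα+/+ mice with IL-4c and removed 1, whose expression grouped with the PBS-treated mice. Looking back, the paper also found less RELMα in the peritoneal fluid and fewer peritoneal cells in that mouse. It ascribes this to likely ineffective delivery of IL-4c. The IL-4c-treated Rα+/+ group was thus chosen in part by its expression. In the RαTd allele the Retnla coding exons were replaced by the TdTomato reporter in the germline, so RELMα is missing from every cell of the mouse and not from macrophages alone. Retnla was listed at the floor of 30 normalized counts in all 6 RαTd/Td mice and reached 4141 to 4631 normalized counts in PBS-treated and 115675 to 171588 in IL-4c-treated Rα+/+ mice. All 6 macrophage markers (Adgre1, Itgam, Csf1r, Cd68, Mertk, Cd14) were measured, and their sum lay between 23600 and 29795 normalized counts in every mouse. Within this sum the markers moved apart with IL-4c in Rα+/+ mice. Cd14 had 1666 and 1230 normalized counts after PBS and 307 to 358 after IL-4c. Csf1r had 3643 and 2656 and then 1532 to 1622, and Mertk 532 and 429 and then 198 to 276. Adgre1 instead had 6695 and 5897 and then 8281 to 9926, while Itgam and Cd68 overlapped between treatments.

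Counts above the floor summed to between 268858 and 574505 per mouse, and each lane's detection limit lay at 30.5 to 56.3 normalized counts. The members above the floor rested on 56 to 5369 counts, a counting error of 1.36% to 13.4%, and this error leaves out the spread between mice. The deposited values are scaled to 4 housekeeping genes. On that scale the median of all 445 genes moved by -0.18 (log2) with IL-4c in Rα+/+ and by -0.23 in RαTd/Td mice. The synthetic positive control probes, added to every lane, gave a geometric mean of 853 to 1021 counts in PBS lanes and 301 to 623 counts in IL-4c lanes. Scaling to those probes, an alternative chosen after seeing the data, moved the median gene to 1.09 and 1.27, so that signed changes with IL-4c depend on which scale is used, whereas the order of the genes among themselves does not. Which scale is closer to RNA per cell was not tested. In bulk samples, fewer cells of a type and less RNA per cell cannot be told apart.

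The upstream sequences of the 4 receptor genes are shown because the genes moved apart with IL-4c although Fcgr2b, Fcgr4 and Fcgr3 are neighbours on chromosome 1 with no other protein-coding gene between them. Fcgr1 lies on chromosome 3 and Syk on chromosome 13. Each sequence is the 250 bases before a RefSeq transcript start in GRCm38.p6, read on the strand of the gene. Capitals mark TTCNNNGAA, the palindrome that STAT factors bind, and GAGGAA or its reverse complement TTCCTC, the core that PU.1 binds.

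Fcgr1 (chr3:96293970-96294219, minus strand): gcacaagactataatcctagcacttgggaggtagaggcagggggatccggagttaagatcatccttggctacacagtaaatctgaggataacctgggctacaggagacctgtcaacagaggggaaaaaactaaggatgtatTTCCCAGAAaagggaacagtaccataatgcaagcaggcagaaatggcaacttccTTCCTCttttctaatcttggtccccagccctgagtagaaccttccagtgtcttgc
Fcgr3 (chr1:171059404-171059653, minus strand): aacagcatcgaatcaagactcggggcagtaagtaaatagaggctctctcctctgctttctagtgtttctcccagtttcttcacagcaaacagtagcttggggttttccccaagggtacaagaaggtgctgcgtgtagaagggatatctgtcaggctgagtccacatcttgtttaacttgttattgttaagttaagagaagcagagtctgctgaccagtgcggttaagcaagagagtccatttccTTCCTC
Fcgr4 (chr1:171018676-171018925, plus strand): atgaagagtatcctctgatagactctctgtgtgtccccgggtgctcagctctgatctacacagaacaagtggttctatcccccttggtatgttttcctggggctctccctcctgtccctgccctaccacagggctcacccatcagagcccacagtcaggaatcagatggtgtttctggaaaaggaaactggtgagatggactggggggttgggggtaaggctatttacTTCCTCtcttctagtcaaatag
Fcgr2b (chr1:170976072-170976321, minus strand): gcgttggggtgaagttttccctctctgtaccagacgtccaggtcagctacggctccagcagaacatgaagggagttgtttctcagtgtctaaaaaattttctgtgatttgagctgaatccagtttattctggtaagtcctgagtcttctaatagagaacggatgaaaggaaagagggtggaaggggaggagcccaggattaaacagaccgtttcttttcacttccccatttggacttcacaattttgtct

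Both strands were searched for 3 motifs in 8 windows of the 6 named genes, of which Fcgr3 and Syk have more than one start. TTCNNNGAA was found in 1 of the 8, at 109 bases before the Fcgr1 start, and in 7.02% of the 32851 windows of the same length in the RefSeq table. TTCNNNNGAA, the spacing that STAT6 prefers, was found in 0 of the 8 and in 5.85% of all windows. GAGGAA was found in 5 of the 8, the 3 activating receptors among them, and in 23.3% of all windows, but 2 of those 5 are overlapping Fcgr3 windows that hold the same match. These are matches of letters within a short window and say nothing of binding.

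The inhibitory receptor was the member that rose with IL-4c. Fcgr2b had 1958 and 1612 normalized counts in PBS-treated Rα+/+ mice and 3990, 4409 and 4729 in IL-4c-treated Rα+/+ mice. In RαTd/Td mice it had 1659 and 1549 under PBS, and 5112, 5038, 3706 and 4350 after IL-4c. Every IL-4c-treated mouse was above every PBS-treated mouse, and the genotypes overlapped under both treatments. The change was 1.30 ± 0.16 on the log2 scale (SE, adjusted p = 0.000175 by limma) or 2.46-fold in Rα+/+ mice, and 1.49 ± 0.15 (adjusted p = 6.16e-05) or 2.81-fold in RαTd/Td mice. The rise kept its direction and its call under every alternative tried, and was 2.57 and 3.00 with positive control scaling.

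The activating receptors lay below their PBS levels on the housekeeping scale, and on the positive control scale Fcgr1 alone did. Fcgr1, the high-affinity receptor and a classical interferon-γ target, had 162 and 220 normalized counts in PBS-treated Rα+/+ mice and 194 and 186 in PBS-treated RαTd/Td mice. After IL-4c it was listed at the floor in 3 of 3 Rα+/+ mice and in 3 of 4 RαTd/Td mice, with 64.3 normalized counts in mouse 12. IL-4c-treated mice thus all lay below PBS-treated mice, and most of them have only an upper limit. Against the limit of each lane, Fcgr1 was at least 5.38-fold lower in Rα+/+ mice (limma adjusted p = 0.000136) and at least 5.04-fold lower in RαTd/Td mice (adjusted p = 0.000184). The fitted change was negative and called under every scaling, positive controls included.

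Fcgr3 encodes the activating receptor whose outer domains are most like those of Fcgr2b. Whether the probes of these similar genes bind each other's transcripts was not tested; the genes moved in opposite directions on the housekeeping scale. It had 2208 and 1790 normalized counts in PBS-treated Rα+/+ mice and 988, 949 and 853 in IL-4c-treated Rα+/+ mice. RαTd/Td mice had 2235 and 2706 after PBS and 1215, 1176, 1700 and 1903 after IL-4c. PBS-treated mice were above IL-4c-treated mice within each genotype without overlap, but mouse 12 reached the range of PBS-treated Rα+/+ mice. On the housekeeping scale Fcgr3 fell by 1.10 (log2, SE 0.22, limma adjusted p = 0.00296) in Rα+/+ and by 0.75 (SE 0.21, adjusted p = 0.0136) in RαTd/Td mice, and on the positive control scale these values turned to 0.18 and 0.77. The fall in RαTd/Td mice was not called without mouse 4 (-0.61, adjusted p = 0.115). Relative to the median gene, Fcgr3 was lower on both scales, by -0.92 and -0.91 in Rα+/+ and by -0.51 and -0.50 in RαTd/Td mice.

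Fcgr4 encodes FcγRIV, which binds the IgG subclasses most active in antibody-mediated clearance. It had 585 and 771 normalized counts in PBS-treated Rα+/+ mice and 444, 455 and 299 in IL-4c-treated Rα+/+ mice, which did not overlap. In RαTd/Td mice it had 1179 and 1534 after PBS and 614, 517, 894 and 1121 after IL-4c, again without overlap. The change with IL-4c was -0.77 (log2, SE 0.33) in Rα+/+ mice and did not pass the test (limma adjusted p = 0.0820). The RαTd/Td value was -0.84 (SE 0.31) and passed narrowly (adjusted p = 0.0468), a call that was lost when any of mice 1 to 6, 9 or 10 was left out. Among other settings, the call was also lost with no filter on low values (limma adjusted p = 0.136) and after centring each mouse on its median gene (0.118). The same held for quantile normalization (0.0656) and a single floor for all mice (0.0768). Positive control scaling turned the changes of both genotypes, to 0.50 and 0.67, while relative to the median gene Fcgr4 stayed lower on both scales, between -0.58 and -0.61.

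Syk, the kinase that all ITAM-coupled Fcγ receptors share, had the smallest change of the members on the housekeeping scale. It had 733 and 629 normalized counts in PBS-treated and 441, 466 and 498 in IL-4c-treated Rα+/+ mice. RαTd/Td mice had 805 and 727 after PBS and 555, 534, 621 and 567 after IL-4c. The ranges did not overlap in either genotype, and Syk fell by 0.54 (log2, SE 0.12, limma adjusted p = 0.00444) in Rα+/+ and by 0.43 (SE 0.11, adjusted p = 0.0101) in RαTd/Td mice on the housekeeping scale. Both calls were lost after centring each mouse on its median gene (-0.24 and -0.17) or quantile normalization (-0.22 and -0.10), and the sign turned with positive control scaling (0.74 and 1.08, the latter called at adjusted p = 0.00928). The direction of Syk is thus set by the scale.

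**Figure D1:**
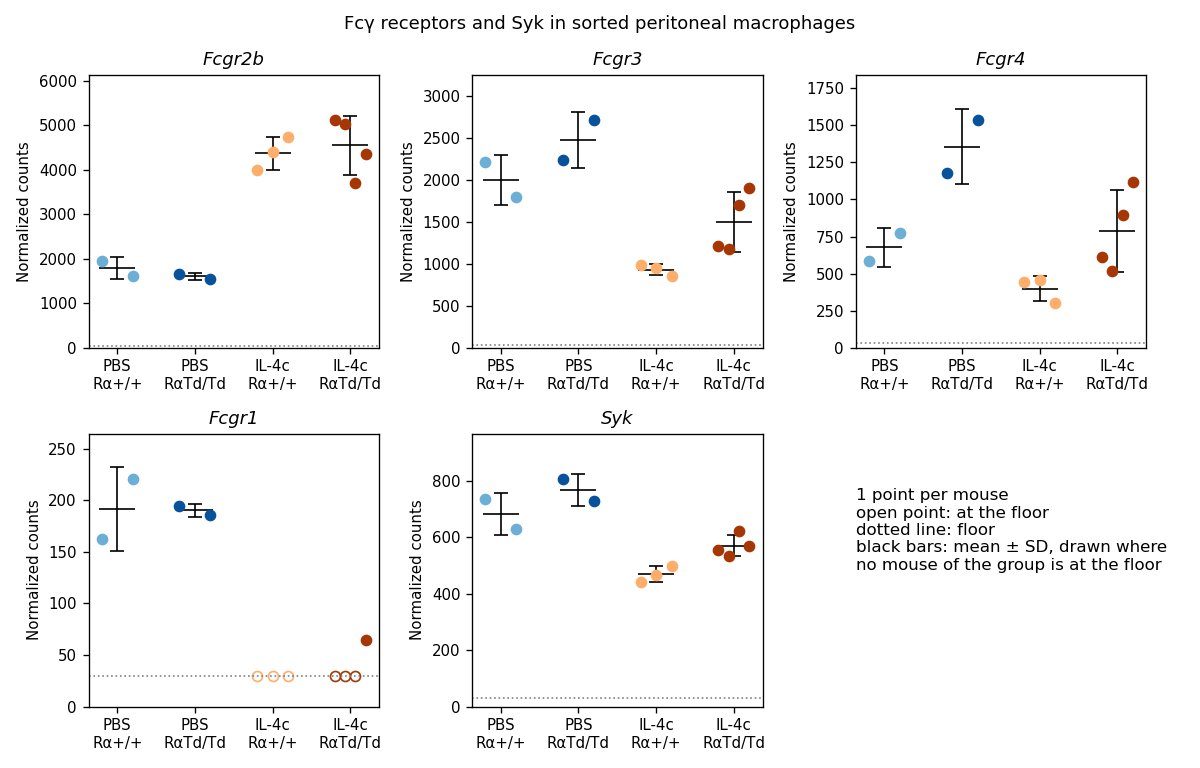
Normalized counts (y axis, linear from 0) of Fcgr2b, Fcgr3, Fcgr4, Fcgr1 and Syk in each mouse, by treatment and genotype (x axis), with black bars for the group mean ± SD where no mouse is at the floor and open points for values at the floor. On this housekeeping scale Fcgr2b is higher and the other members are lower in IL-4c-treated mice of either genotype; with positive control scaling Fcgr3, Fcgr4 and Syk turn the other way.

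In counts, 4 of the 5 members were called in Rα+/+ mice (1 higher, 3 lower) against 46.3% of all genes tested (13.9% higher and 32.4% lower). In RαTd/Td mice all 5 were called (1 higher, 4 lower) against 51.9% (15.3% higher and 36.6% lower). The count in RαTd/Td mice was 3 without mouse 3 or without mouse 4, each of which leaves a lone PBS-treated RαTd/Td mouse assumed to vary like the other groups. All 5 members had non-overlapping groups in both genotypes, as had 63.6% and 62.5% of all genes. The members' median change was -0.77 in Rα+/+ and -0.75 in RαTd/Td mice. In an exact permutation test that exchanged treatments within genotype (two-sided, 150 arrangements, 16 relations tested by such permutations in all), p was 0.00667 for Fcgr1, Fcgr2b, Fcgr3 and Syk, the smallest that was reached, and 0.02 for Fcgr4. Permutations were run on the members and their ratios to Fcgr2b alone. The share of all genes that would reach such p-values is therefore not known.

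**Figure D2:**
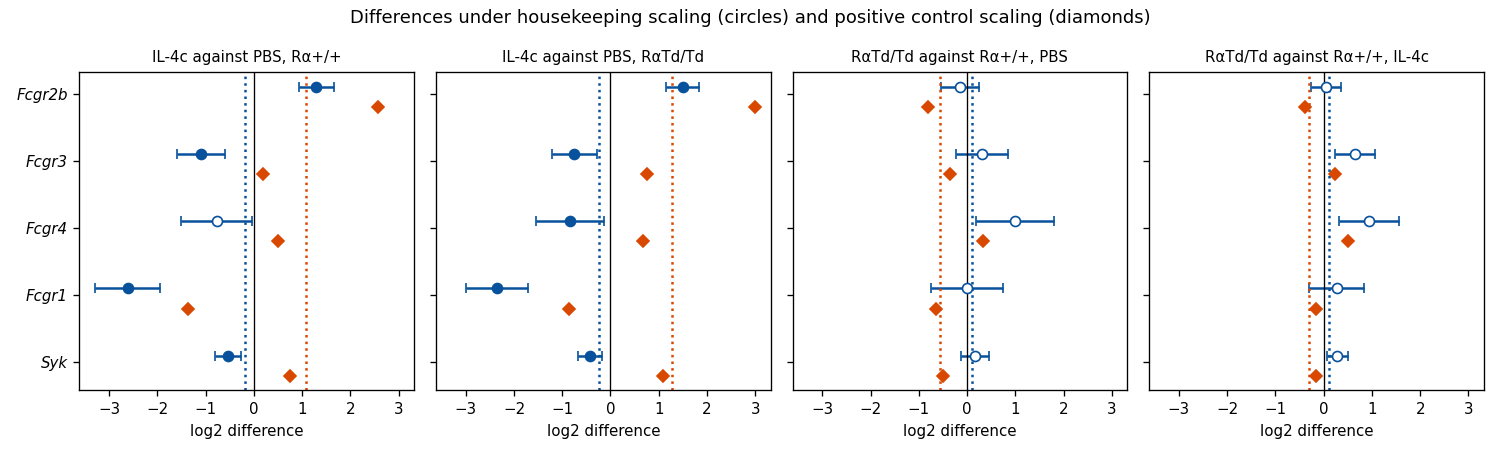
Log2 differences (x axis) of each member (y axis) in the 4 comparisons, with circles for the housekeeping scale (filled where the adjusted p was at or under 0.05, bars for the 95% confidence interval) and diamonds for positive control scaling. Dotted lines mark the median of all genes tested on each scale; Fcgr2b lies above and Fcgr1, Fcgr3, Fcgr4 and Syk lie below that median in both IL-4c comparisons on both scales.

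The genotypes were then compared under each treatment, with the same mice as above, to ask what the loss of RELMα changed. Under PBS, Fcgr4 was 2.00-fold higher in RαTd/Td than in Rα+/+ mice (1.00 on the log2 scale, 95% interval 0.19 to 1.81), which did not pass the test over all genes (limma adjusted p = 0.132). The differences of the other members were 0.31 for Fcgr3, 0.17 for Syk, 0.01 for Fcgr1 and -0.15 for Fcgr2b (adjusted p from 0.478 to 1). After IL-4c, Fcgr4 was 1.91-fold (0.93, interval 0.31 to 1.55, adjusted p = 0.102) and Fcgr3 was 1.58-fold (0.66, interval 0.24 to 1.07, adjusted p = 0.102) the Rα+/+ level, again short of the threshold. Syk differed by 0.28 (interval 0.06 to 0.50, adjusted p = 0.144). Fcgr2b differed by 0.05 (interval -0.26 to 0.35, adjusted p = 0.864), and Fcgr1, at the floor in most of these mice, by 0.27 (adjusted p = 0.573), a value that was 0 without mouse 12.

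Of the 5 members, 0 were called by limma after PBS (9.66% of all genes were) and 0 after IL-4c (2.7%), while 1 and 3 had an unadjusted p under 0.05, as had 22.9% and 21.8% of all genes. The methods' t-test without adjustment gave 0 of the 5 members after PBS (12.1% of all genes) and 3 after IL-4c (16.4%). The groups did not overlap for 2 members after PBS (Fcgr3 and Fcgr4, against 49% of all genes) and for 3 after IL-4c (Fcgr3, Fcgr4 and Syk, against 18.9%), with RαTd/Td mice higher each time. The test of the difference in IL-4c response between genotypes called 0 of 5 members (2.02% of all genes), with 0 at an unadjusted p under 0.05 (15.5% of all genes). Those differences in response ran from -0.07 for Fcgr4 (interval -1.09 to 0.95) to 0.35 for Fcgr3 (interval -0.33 to 1.03). The intervals of Fcgr1 and Fcgr3 included a response higher by 1 on the log2 scale in RαTd/Td mice. That of Fcgr4 included one lower by 1. For these members a difference of that size could not be told from none, whereas the intervals of Fcgr2b and Syk left it out.

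Averaging the genotype difference over both treatments, a comparison added after seeing the data, gave Fcgr4 0.97 on the log2 scale (SE 0.23, interval 0.46 to 1.48, limma adjusted p = 0.0227). Its rank by size was 10 among the 445 genes, and 13% of all genes were called in this comparison (10.8% higher in RαTd/Td mice). The values of the other members were 0.48 for Fcgr3 (adjusted p = 0.0679), 0.23 for Syk (adjusted p = 0.102), 0.14 for Fcgr1 and -0.05 for Fcgr2b, none called. The call on Fcgr4 was lost with no filter on low values (adjusted p = 0.0836), after centring (0.80, adjusted p = 0.0523), with positive control scaling (0.42, adjusted p = 0.293) and without mouse 1, 2, 3 or 4 in turn (0.87 to 1.07, adjusted p from 0.0526 to 0.0957), all with the same sign. In the exact permutation test that exchanged genotypes within treatment (two-sided, 210 arrangements), p was 0.00952 for Fcgr4 and Syk, the smallest that was reached, 0.0143 for Fcgr3, 0.571 for Fcgr1 and 0.652 for Fcgr2b. With positive control scaling the averaged values of Fcgr3 and Syk turned negative, to -0.06 and -0.32.

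The order of the 4 groups differed between members. For Fcgr2b the IL-4c-treated groups were above the PBS-treated groups, and within each treatment the genotypes overlapped. For Fcgr3 and Syk the order by mean, from the top, was PBS-treated RαTd/Td, PBS-treated Rα+/+, IL-4c-treated RαTd/Td and IL-4c-treated Rα+/+. In that order the ranges of the 2 middle groups overlapped for Fcgr3 and those of the 2 PBS-treated groups for Syk, and no neighbouring groups that differ in genotype alone were told apart by the test. For Fcgr4 the IL-4c-treated RαTd/Td mice, with a mean of 786 ± 274 normalized counts (SD, n = 4), spanned the range of the PBS-treated Rα+/+ mice, whose mean was 678 ± 131 (SD, n = 2). The highest Fcgr4 group was PBS-treated RαTd/Td at 1357 ± 251 (SD, n = 2) and the lowest IL-4c-treated Rα+/+ at 399.5 ± 86.9 (SD, n = 3).

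Dividing each activating receptor by Fcgr2b within a mouse removes the lane's scaling factor, so these ratios are the same on the housekeeping and on the positive control scale. Their size depends on how well each probe binds and has no meaning of its own, and only differences between mice can be read. Fcgr3 to Fcgr2b was 1.13 and 1.11 in PBS-treated Rα+/+ mice, 1.35 and 1.75 in PBS-treated RαTd/Td mice, 0.248, 0.215 and 0.180 in IL-4c-treated Rα+/+ mice, and 0.238, 0.233, 0.459 and 0.437 in IL-4c-treated RαTd/Td mice. The ratio fell by 2.39 on the log2 scale (SE 0.31, limma adjusted p = 2.27e-05), or 5.26-fold, in Rα+/+ mice and fell by 2.24 (SE 0.30, adjusted p = 1.44e-05), or 4.72-fold, in RαTd/Td mice. Fcgr4 to Fcgr2b was 0.299 and 0.478 in PBS-treated Rα+/+ mice, 0.711 and 0.990 in PBS-treated RαTd/Td mice, 0.111, 0.103 and 0.0633 in IL-4c-treated Rα+/+ mice, and 0.120, 0.103, 0.241 and 0.258 in IL-4c-treated RαTd/Td mice. It fell by 2.07 (SE 0.42, adjusted p = 0.000495) in Rα+/+ and fell by 2.33 (SE 0.40, adjusted p = 0.000103) in RαTd/Td mice, 4.20-fold and 5.04-fold. Fcgr1 to Fcgr2b was between 0.0829 and 0.137 in the PBS-treated mice, and against the lane limits it was at least 13.2-fold lower with IL-4c in Rα+/+ and at least 14.2-fold lower in RαTd/Td mice.

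All 3 ratios were called lower in both genotypes, against 89% of the 444 other genes in Rα+/+ and 89.9% in RαTd/Td mice when those genes were likewise divided by Fcgr2b. A lower ratio to Fcgr2b was therefore near the background of the whole panel, as Fcgr2b itself was among the genes that rose. The falls of the 3 ratios kept their direction and their call under every alternative that gave a value. In the exact permutation test over treatments, p was 0.00667 for each ratio.

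Summing the 3 activating receptors before dividing by Fcgr2b gave 1.51 and 1.73 in PBS-treated Rα+/+ mice and 2.17 and 2.86 in PBS-treated RαTd/Td mice. After IL-4c the sum to Fcgr2b was 0.366, 0.325 and 0.250 in Rα+/+ mice and 0.364, 0.342, 0.708 and 0.710 in RαTd/Td mice. The difference with IL-4c was -2.38 on the log2 scale, 5.21-fold lower, in Rα+/+ and -2.32, 4.99-fold lower, in RαTd/Td mice, against a pooled SD between mice of a group of 0.43. The genotypes differed by 0.63 after PBS, 1.54-fold higher in RαTd/Td mice, and by 0.69 after IL-4c, 1.61-fold higher. The PBS-treated genotypes did not overlap in this sum. After IL-4c they did, since mice 9 and 10 lay within the range of the Rα+/+ mice while mice 11 and 12 lay above all 3 of them. No test was run on the sum, which pools members.

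**Figure D3:**
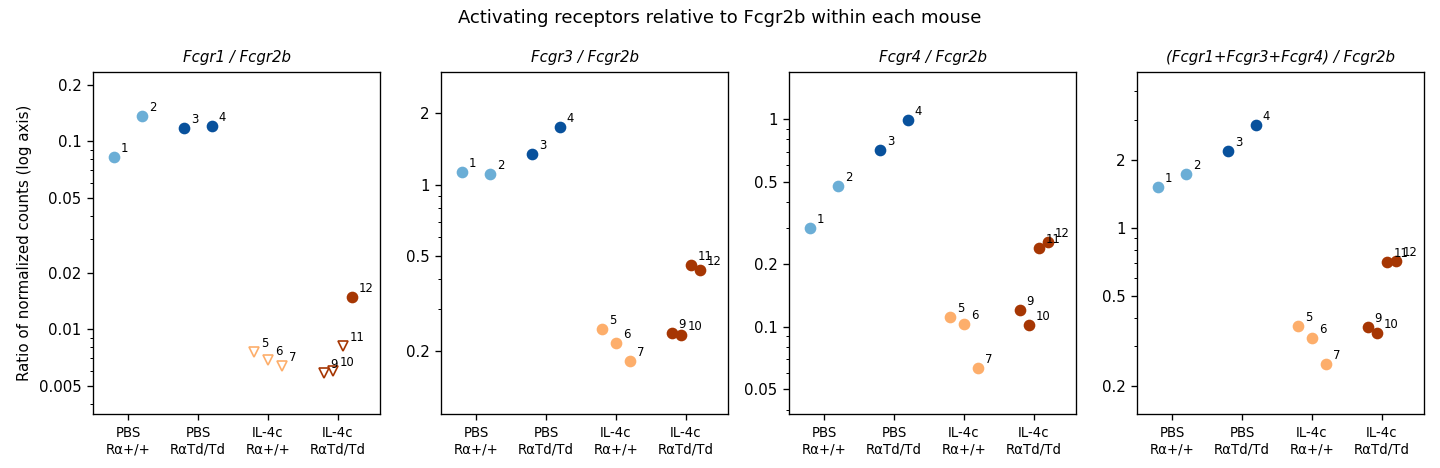
Ratio of Fcgr1, Fcgr3, Fcgr4 and of their sum to Fcgr2b (y axis, log scale) in each mouse (numbered points) by treatment and genotype (x axis), with open triangles where Fcgr1 was at the floor and the ratio uses the floor value. All IL-4c-treated mice lie below all PBS-treated mice; among IL-4c-treated RαTd/Td mice, mice 11 and 12 lie above mice 9 and 10, which fall among the Rα+/+ mice for the Fcgr3 and summed ratios.

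For the genotype, the ratio of Fcgr4 to Fcgr2b differed by 1.15 (log2, SE 0.46, limma adjusted p = 0.175) after PBS and by 0.89 (SE 0.35, adjusted p = 0.427) after IL-4c. Fcgr3 to Fcgr2b differed by 0.45 (adjusted p = 0.481) and by 0.61 (adjusted p = 0.489), and Fcgr1 to Fcgr2b by 0.15 and 0.22. By limma 0 of the 3 ratios were called after PBS (3.15% of the 444 genes were) and 0 after IL-4c (0.676%), with 1 and 2 at an unadjusted p under 0.05 (22.5% and 9.46% of the genes), and a fit of the PBS-treated groups alone called Fcgr4 to Fcgr2b (adjusted p = 0.0169). In the exact permutation test over genotypes p was 0.0333 for the ratios of Fcgr3 and of Fcgr4 and 0.471 for that of Fcgr1. Fcgr4 relative to Fcgr3 was 0.265 and 0.431 in PBS-treated Rα+/+, 0.528 and 0.567 in PBS-treated RαTd/Td, 0.450, 0.480 and 0.351 in IL-4c-treated Rα+/+, and 0.505, 0.439, 0.526 and 0.589 in IL-4c-treated RαTd/Td mice.

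Peritoneal macrophages comprise large resident cells and small, MHC class II-rich cells, and the gate could hold both. Of 6 markers listed for small macrophages, 5 were measured (Ccr2, Cd74, H2-Aa, H2-Ab1, Irf4), and their sum, mostly from the class II genes Cd74, H2-Aa and H2-Ab1, was highest in the PBS-treated RαTd/Td mice, as Fcgr4 was. It was 6851 and 8335 normalized counts in PBS-treated Rα+/+ mice, 22288 and 29953 in PBS-treated RαTd/Td mice, 4338, 7025 and 4139 in IL-4c-treated Rα+/+ mice, and 6600, 11400 and 12191 in mice 9, 10 and 11 and 16935 in mouse 12. Cd74, the class II invariant chain, had 3963 and 4865 normalized counts in PBS-treated Rα+/+ and 12683 and 16768 in PBS-treated RαTd/Td mice. Neither marker outside class II was highest in the PBS-treated RαTd/Td mice. Ccr2, a chemokine receptor of monocyte-derived cells, had 175 and 353 in PBS-treated Rα+/+ and 249 and 259 in PBS-treated RαTd/Td mice, and reached 464 in mouse 12. Irf4 had 143 and 100.5 in PBS-treated Rα+/+ and 174 and 171 in PBS-treated RαTd/Td mice, higher in the latter without overlap as for the class II genes. In IL-4c-treated mice Irf4 had 147 to 206. The summed markers of large macrophages that were measured (Gata6, Timd4, Alox15, Cxcl13) ran from 14788 to 19270 in PBS-treated and from 5315 to 9510 in IL-4c-treated mice. The lower sum came from Alox15, Timd4 and Cxcl13, whereas Gata6, the factor that defines large macrophages, had 503 to 712 normalized counts in PBS-treated and 536 to 654 in IL-4c-treated mice. The part of these markers in the values of Fcgr3 and Fcgr4 was not tested.

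**Figure D4:**
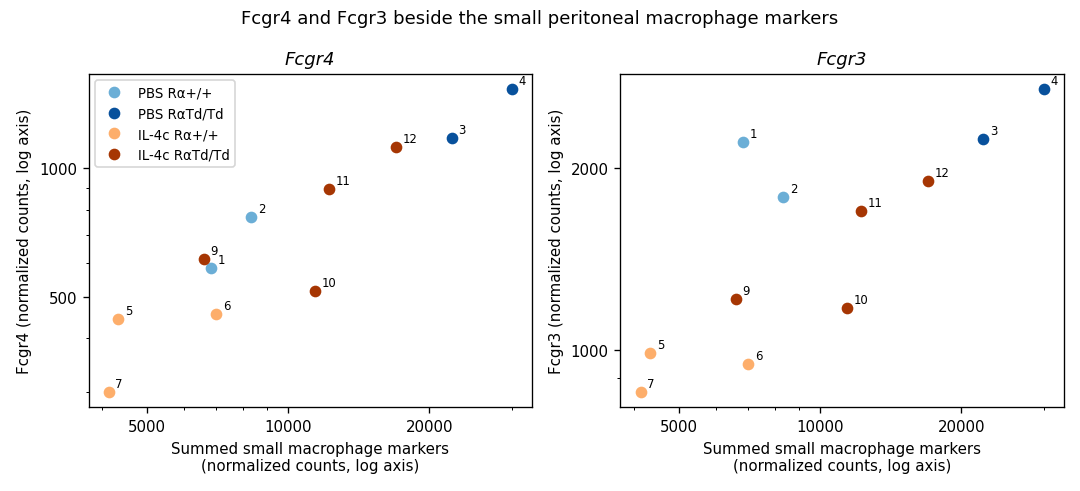
Normalized counts of Fcgr4 (left) and Fcgr3 (right) in each mouse (y axis, log scale) against the sum of 5 small peritoneal macrophage markers (x axis, normalized counts, log scale), with points numbered by mouse and coloured by group. The PBS-treated RαTd/Td mice 3 and 4 have the highest values on both axes of either panel, and mice 11 and 12 lie above mice 9 and 10 in both receptors.

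Markers of other cells were low. Ms4a1, the B cell marker on the panel, had 104.5 to 242 normalized counts in PBS-treated mice, was at the floor after IL-4c in mice 5, 6, 7, 9, 10 and 11, and reached 63.1 in mouse 12, which was also the mouse with Fcgr1 above the floor. B cells carry Fcgr2b as their Fcγ receptor, and their part in the Fcgr2b values was not tested. The eosinophil markers (Siglecf, Prg2, Epx, Ccr3, Il5ra), the T cell marker Cd247, the NK cell markers Klrk1 and Gzma, and the neutrophil markers Ly6g, Mpo and Elane were at the floor in all mice. S100a8, S100a9 and Csf3r summed to 364 to 660 normalized counts in PBS-treated mice, mostly from Csf3r, and to 90.0 to 181 in IL-4c-treated mice. These sums take values at the floor as 30. After IL-4c Csf3r ran from the floor to 115, and S100a8 and S100a9 were at most 47.1. The part of these markers in the fall of Fcgr1 was not tested.

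The wider ITAM pathway was described through lists of adaptors, kinases, substrates, inhibitors and oxidase subunits. Of 102 listed genes 28 had a row and 19 passed the filter. On the housekeeping scale 1 of the 19 rose and 8 fell with IL-4c in Rα+/+ mice, and 0 rose and 9 fell in RαTd/Td mice. Of all 445 genes, 62 rose and 144 fell in Rα+/+ mice, and 68 rose and 163 fell in RαTd/Td mice. The median change of the lists was -0.44 and -0.37 beside -0.18 and -0.23 over all genes. This direction was set by the scale. After centring each mouse on its median gene 3 rose and 3 fell in Rα+/+ mice and 1 rose and 4 fell in RαTd/Td mice. Of all 445 genes, 106 rose and 92 fell, and 104 rose and 110 fell. With positive control scaling 8 of the 19 rose and 1 fell in Rα+/+ mice, and 16 rose and 1 fell in RαTd/Td mice. Of all 445 genes, 266 rose and 22 fell, and 323 rose and 14 fell. The list medians on the positive control scale, 0.80 and 1.13, were below the 1.09 and 1.27 of all genes.

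The gene that fell on every scale was Clec7a, which encodes the β-glucan receptor Dectin-1 and signals through Syk. It had 457 and 229 normalized counts in PBS-treated Rα+/+ and 447 and 509 in PBS-treated RαTd/Td mice, and no more than 165 in any IL-4c-treated mouse. With the 2 Rα+/+ mice and the 1 RαTd/Td mouse at the floor set to their limits, it was at least 9.09-fold lower with IL-4c in Rα+/+ mice (limma adjusted p = 0.00124) and at least 7.34-fold lower in RαTd/Td mice (adjusted p = 0.00181).

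The other values of these lists are on the housekeeping scale, with the positive control value after each. Tyrobp encodes DAP12, the ITAM adaptor of several myeloid receptors. It had 7038 and 6352 normalized counts in PBS-treated Rα+/+ mice and 4840, 4320 and 4035 after IL-4c, a fitted change of -0.61 (adjusted p = 0.00551; 0.67) there and of -0.48 (adjusted p = 0.0125; 1.03) in RαTd/Td mice. Trem2, which signals through DAP12, changed by -1.95 in Rα+/+ mice (adjusted p = 0.0233; -0.68, adjusted p = 0.152) and by -0.12 in RαTd/Td mice (adjusted p = 0.894; 1.37). RαTd/Td mice had 118 and 146 normalized counts of Trem2 after PBS. After IL-4c mice 9, 10 and 11 had 88.6, 90.9 and 76.5, and mouse 12 had 342. On the housekeeping scale the difference in Trem2 response between genotypes was not called (1.82, limma adjusted p = 0.324). Clec5a, another partner of DAP12, was at the floor in all 4 IL-4c-treated RαTd/Td mice, at least 2.80-fold lower than after PBS (adjusted p = 0.000315), and its fitted change on the positive control scale was -0.08 (adjusted p = 0.856). Between genotypes it was the one gene of these lists that was called. After PBS it had 56.3 normalized counts and the floor in Rα+/+ mice and 107 and 77.0 in RαTd/Td mice (adjusted p = 0.0287). That call was lost with quantile normalization (0.90, adjusted p = 0.0541) and with positive control scaling (0.46, adjusted p = 0.50).

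Among the 8 genes downstream of Syk, Vav1, a guanine nucleotide exchange factor that Syk phosphorylates, changed by -0.67 in each genotype (adjusted p = 0.00584 and 0.00413; 0.60 and 0.84). Bcl10, which couples Syk to NF-κB through Card9, changed by -1.04 in Rα+/+ mice (adjusted p = 0.00157; 0.23) and by -0.69 in RαTd/Td mice (adjusted p = 0.00965; 0.81). Vav2 was the one that rose, by 0.52 in Rα+/+ mice (adjusted p = 0.0231; 1.78). Of the 3 other inhibitory receptors listed, Ceacam1 changed by -0.60 in Rα+/+ mice (adjusted p = 0.0315; 0.67). Siglec1, a sialic acid receptor that carries no ITIM, was at the floor in 3 of 4 IL-4c-treated RαTd/Td mice, at least 2.34-fold lower than after PBS (adjusted p = 0.0435; 0.23). Sirpa, which restrains phagocytosis on meeting CD47, changed by -0.26 and -0.06 (adjusted p = 0.0621 and 0.630; 1.02 and 1.45).

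The phagocyte oxidase is the machinery that Fcγ receptors and Syk switch on. Cybb, its catalytic subunit, had 4775 and 3854 normalized counts in PBS-treated Rα+/+ and 2655, 2593 and 2649 in IL-4c-treated Rα+/+ mice, a change of -0.70 (adjusted p = 0.00412; 0.57) there and of -0.52 (adjusted p = 0.0130; 1.00) in RαTd/Td mice. The IgE receptor genes Fcer1a, Fcer2a and Ms4a2 were at the floor in all mice.

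The genes whose levels followed each member most closely over the 11 mice were taken from the 279 other genes with a mean above 100, as a description without a test, since treatment moves most of them. For Fcgr2b these were Rnase2a (r = 0.99) and Chil4 (r = 0.99), which were at or near the floor in PBS-treated mice and between 1430 and 72000 normalized counts in IL-4c-treated mice. For Fcgr3 they were Cd84 (r = 0.98) and Cebpa (r = 0.98), and for Syk Cybb (r = 0.97) and Cd14 (r = 0.97). The fitted changes of these genes with IL-4c were negative on the housekeeping scale. For Cd84 in RαTd/Td mice the fall was not called (-0.32, limma adjusted p = 0.116), and the groups overlapped. For Fcgr4 they were the class II genes H2-Eb1 (r = 0.94) and Cd74 (r = 0.92), which were higher in PBS-treated RαTd/Td than in PBS-treated Rα+/+ mice, as Fcgr4 was. The 11 points share 4 groups and the housekeeping scale.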

How the data were processed

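Per the labels and the study's methods, sorted macrophages were lysed and counted on the Nanostring panel. The authors normalized raw counts to 4 housekeeping genes (Eef1g, Gusb, Oaz1, Rpl19) and deposited 1 table of linear signal in normalized counts for 11 mice, 754 genes and 14 control probes (6 positive, 8 negative). The software version and any background subtraction are not given in the sources used here. In each mouse 100% of values between the floor and 1000 were whole multiples (within 0.1 count) of 1 factor, 0.750 to 1.88, which gave the counts and the depth. Negative controls reached at most 13 counts.

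The test used log2(value + 1) of every gene whose mean exceeded 30 normalized counts, in limma 3.58.1 (R 4.3.3), with 1 coefficient per group over all 11 mice and Benjamini-Hochberg adjustment over the 445 genes of each comparison; a call is an adjusted p of 0.05 or less. Fold changes are on that log2(value + 1) scale. Ratios were fitted the same way after dividing every gene by Fcgr2b (444 genes). The members, the pathway and marker lists and the comparisons were chosen with earlier results of these data known. Named genes are the members, the 3 called genes of the pathway lists with the largest change in each of the 4 pairwise comparisons, the 2 genes most correlated with each member above the floor in every mouse, the housekeeping genes and Retnla. Tyrobp, Vav1, Vav2, Ceacam1, Sirpa, Cybb and the marker genes were named in addition, after their values were seen, to describe their lists. Some genes of the lists are not reported here. Nothing says whether mice of a group shared a litter or cage, so p-values measure the spread between these mice. The fits were tested on simulated data. Alternatives covered filters, scaling, the added constant, the floor, the samples in the fit, each mouse left out, and an unpaired t-test on log2 values, here called the methods' t-test. The methods name that test for pathway scores and for comparisons of 2 groups, and describe no model for single genes. Positive control scaling, the comparisons averaged over treatments or genotypes and the permutation test of single members, and the other scalings of the pathway lists, were added after seeing the data. Promoter sequences and gene positions are from RefSeq (GRCm38.p6), in which all 6 genes matched by symbol.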

Additional observations from a re-analysis of the deposited data

Results flagged for a closer look

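Fcgr1 in IL-4c-treated RαTd/Td mouse 12 was 64.26 normalized counts while the other 3 mice of the group were at the floor of 30, so that its gap to the nearest mouse was the whole range of the group. It rests on 56 counts. Of 9 groups of 4 mice looked at in this way over members and ratios, 1 was marked. With 3 mice at the floor any value above it would have been marked, so the rate of about 1 in 20 that chance gives does not apply to this group. The same mouse had the highest Ms4a1 (63.1) and the highest summed small macrophage markers (16935) of its group, and their part in the value was not tested. For the difference in IL-4c response between genotypes, 0 of 5 members passed the limma test.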

How the results depend on the processing

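Fcgr2b and Fcgr1 with IL-4c and the 3 ratios to Fcgr2b with IL-4c kept direction and call in both genotypes under every alternative that could be run. Of the members, 2 were called in Rα+/+ mice with positive control scaling. In RαTd/Td mice 3 were called after centring, after quantile normalization, with positive control scaling, with only the 2 groups and by the methods' t-test with or without adjustment, and 3 to 5 with each mouse left out. Over the 445 genes, positive control scaling called 266 higher and 22 lower with IL-4c in Rα+/+ mice. In RαTd/Td mice it called 323 higher and 14 lower, centring 104 and 110, and quantile normalization 89 and 109. After IL-4c 3 members differed by genotype in the unadjusted t-test, and after PBS 1 ratio did with only the 2 groups. The mean of the 3 log2 ratios changed with IL-4c by -2.81 in Rα+/+ and -2.82 in RαTd/Td mice, more than the summed ratio.

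Positive control scaling turned Fcgr3 (0.18 and 0.77), Fcgr4 (0.50 and 0.67) and Syk (0.74 and 1.08) with IL-4c in Rα+/+ and RαTd/Td mice, and their averages (0.47, 0.59 and 0.91). It also turned genotype differences of Fcgr1 (-0.65), Fcgr3 (-0.36) and Syk (-0.49) after PBS, of Fcgr1 (-0.15), Fcgr2b (-0.38) and Syk (-0.15) after IL-4c, of Fcgr1 (-0.40), Fcgr3 (-0.064) and Syk (-0.32) on average, and the difference in response of Fcgr4 (0.17). The other reversals were of small uncalled values. After PBS, Fcgr1 was -0.14 with centring, -0.13 with quantile normalization, -0.036 without Eef1g and -0.047 without Gusb, and Syk was -0.048 with quantile normalization. After IL-4c, Fcgr2b was -0.14 with centring and -0.15 with quantile normalization. The averaged Fcgr1 was -0.029 with centring, and Fcgr2b 0.0064 without Rpl19. The difference in response of Fcgr4 was 0.0027 without Gusb. With a single floor the Fcgr1 ratio was -0.0016 after IL-4c and -0.16 for the response. The cause of these changes was not tested.

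With each mouse left out, genotype differences ran from -0.21 to 0.23 for Fcgr1 after PBS, from 0 (without mouse 12) to 0.36 for Fcgr1 after IL-4c, from -0.017 to 0.14 for Fcgr2b after IL-4c and from -0.12 to 0.020 for its average. Differences in response ran from -0.0064 to 0.48 for Fcgr1, from -0.27 to 0.13 for Fcgr4 and from -0.00050 to 0.22 for Syk. For ratios, Fcgr1 ran from -0.21 to 0.51 after PBS, from -0.066 to 0.37 after IL-4c and from -0.29 to 0.43 in response, Fcgr3 from -0.031 to 0.34 and Fcgr4 from -0.60 to 0.076 in response. No paired analysis was possible because no mouse number occurs in more than one group. With 2 PBS-treated mice per genotype, and a floor under Fcgr1, small genotype differences were not detectable.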
